A study of Mus musculus with 9 samples.

Results

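The tumour necrosis factor (TNF) and TNF receptor superfamily was described here through 10 genes in T follicular helper (Tfh) cells, 4 receptors (Tnfrsf8, Tnfrsf4, Tnfrsf9, Tnfrsf18) and 6 ligands (Tnfsf8, Tnfsf11, Lta, Ltb, Tnf, Fasl). They were taken by symbol from a table of 54146 genes, each matched 1 row, and all 10 were among the 15521 genes that passed the filter on low counts. The cells were CD4+CXCR5+PD1+ and were sorted from Peyer's patches, the lymphoid follicles of the mouse small intestine. The study compared 5 libraries from mice with 1 mutant and 1 wild-type allele of the TGF-beta receptor gene Tgfbr1 (WT/mut, replicates 6 to 10) with 4 libraries from littermates with both alleles wild-type (WT, replicates 1, 3, 4 and 5). The labels name no treatment for either group and give no age, sex, litter or sorting day. They leave out the nature of the mutant allele and which cells carry it. Whether 1 mouse or a pool gave each library is also unstated, so the p-values below measure the spread between libraries, which may be technical.

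Members of this superfamily act in pairs. Ligands are mostly trimers anchored on the surface of one cell, and receptors on a neighbouring cell recruit TRAF adaptors that lead to NF-kB, or, for the death receptors, FADD and caspases. On T cells the costimulatory receptors OX40, 4-1BB, GITR and CD30 prolong activation and survival, while lymphotoxin and RANK ligand shape lymphoid tissue, including the follicles and the M cells of Peyer's patches.

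Total counts lay between 29488783 and 43872686 per library. Levels are given as CPM, counts scaled to each library's TMM-adjusted total. Tgfbr1 itself averaged 73.6 ± 16.5 CPM (SD) over the 5 WT/mut libraries and 77.0 ± 20.2 CPM over the 4 WT libraries, and gene counts do not separate its 2 alleles. WT/mut replicate 7 had 30143 genes with a count, against 17904 to 20264 in the other 8 libraries. The T cell and Tfh genes were high in all libraries, with a mean of 894 ± 62 CPM (WT/mut) and 811 ± 154 CPM (WT) for Cd4 and of 1182 ± 59 CPM and 1317 ± 63 CPM for the sorting marker Cxcr5. The 7 T cell genes summed to 6240 to 7176 CPM and 7023 to 8652 CPM. Of the marker lists, the 8 plasma cell genes summed to 616 to 1583 CPM in WT/mut and to 315 to 564 CPM in WT, and the 5 red cell genes to 378 to 819 CPM and 97.2 to 263 CPM, with no overlap. The 6 Tfh genes summed to 4865 to 5203 CPM in WT/mut and 5340 to 6281 CPM in WT, again with no overlap. With CPM on library size alone the Tfh sums of the groups overlapped. Of these 6 genes, 5 had a negative fold change. The widest gap was that of Icos (749 to 922 CPM against 1038 to 1226 CPM). Bcl6 had a positive fold change (394 to 452 CPM against 316 to 434 CPM). The sums of the 6 genes of group 3 innate lymphoid cells, which also make lymphotoxin, overlapped (51.2 to 76.6 CPM and 74.4 to 102 CPM). Of the 4 tested, 3 had a negative fold change and Il7r a positive one (40.9 to 62.0 CPM against 38.2 to 48.1 CPM). In that list edgeR called 1 of 4 tested genes, Kit, lower (9.93 ± 3.89 CPM against 42.1 ± 11.2 CPM, adjusted p = 0.0334), and in the stromal and endothelial list 1 of 5, Tek, higher (0.96 to 2.54 CPM against 0 counts in WT, adjusted p = 0.0321); both are named because they were the marker genes that passed. The fold change was positive for 6 of 8 plasma cell genes, 4 of 4 tested red cell genes and 8 of 8 B cell genes. The part of these differences in the results below was not tested. The 8 regulatory T cell genes, of cells that express OX40, 4-1BB and GITR highly, overlapped (886 to 1147 CPM and 789 to 994 CPM), as did the 8 B cell genes (247 to 549 CPM and 119 to 299 CPM), the 8 macrophage and dendritic cell genes (308 to 812 CPM and 239 to 574 CPM), the 8 CD8 and NK genes (21.2 to 42.2 CPM and 24.6 to 30.8 CPM), the 7 stromal and endothelial genes (159 to 224 CPM and 143 to 196 CPM, with Pdpn at 0 in all libraries) and the 5 epithelial genes (20.5 to 162 CPM and 98.3 to 314 CPM). In bulk samples such as these, fewer cells that express a gene and less RNA per cell cannot be told apart.

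Among the 10 genes, 3 were lower in every WT/mut library than in any WT library: the receptor genes Tnfrsf8 (CD30) and Tnfrsf4 (OX40) and the lymphotoxin gene Lta. Their levels in WT/mut were 0.64, 0.72 and 0.67 times those in WT. With CPM on library size alone the Tnfrsf4 ranges overlapped, while those of Tnfrsf8 and Lta did not. No gene of the 10 passed the threshold of 0.05 on the edgeR adjusted p over all 15521 genes, under which 19 genes passed (0.122%), 14 lower (0.0902%) and 5 higher (0.0322%). Tnfrsf8 came nearest (adjusted p = 0.0649) and was the gene of rank 28 by p among all tested genes. At an unadjusted p under 0.05, 3 of the 10 were lower and 0 higher, where 12.2% of all tested genes passed, 6.46% lower and 5.69% higher. CPM ranges did not overlap for 4.46% of all tested genes, with WT/mut lower for 2.38% and higher for 2.09%. DESeq2 called 2 of the 10, Tnfrsf8 and Lta, where it called 283 of the 12185 genes to which it gave an adjusted p (2.32%), and limma-voom called 0 of the 10 and 18 of all tested genes (0.116%). The fold change was negative for 8 of the 10, with a median log2 fold change (WT/mut over WT) of -0.33, against 49.8% negative and a median of 0.00 over all tested genes. The 10 genes were chosen with earlier results of these data known, so these counts describe them and do not test the family. Without WT replicate 1 the fold change was negative for 9 of the 10. The log2 fold changes of Tnfrsf4, Tnfrsf18 and Ltb were then -0.26, -0.07 and -0.08.

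**Figure D1:**
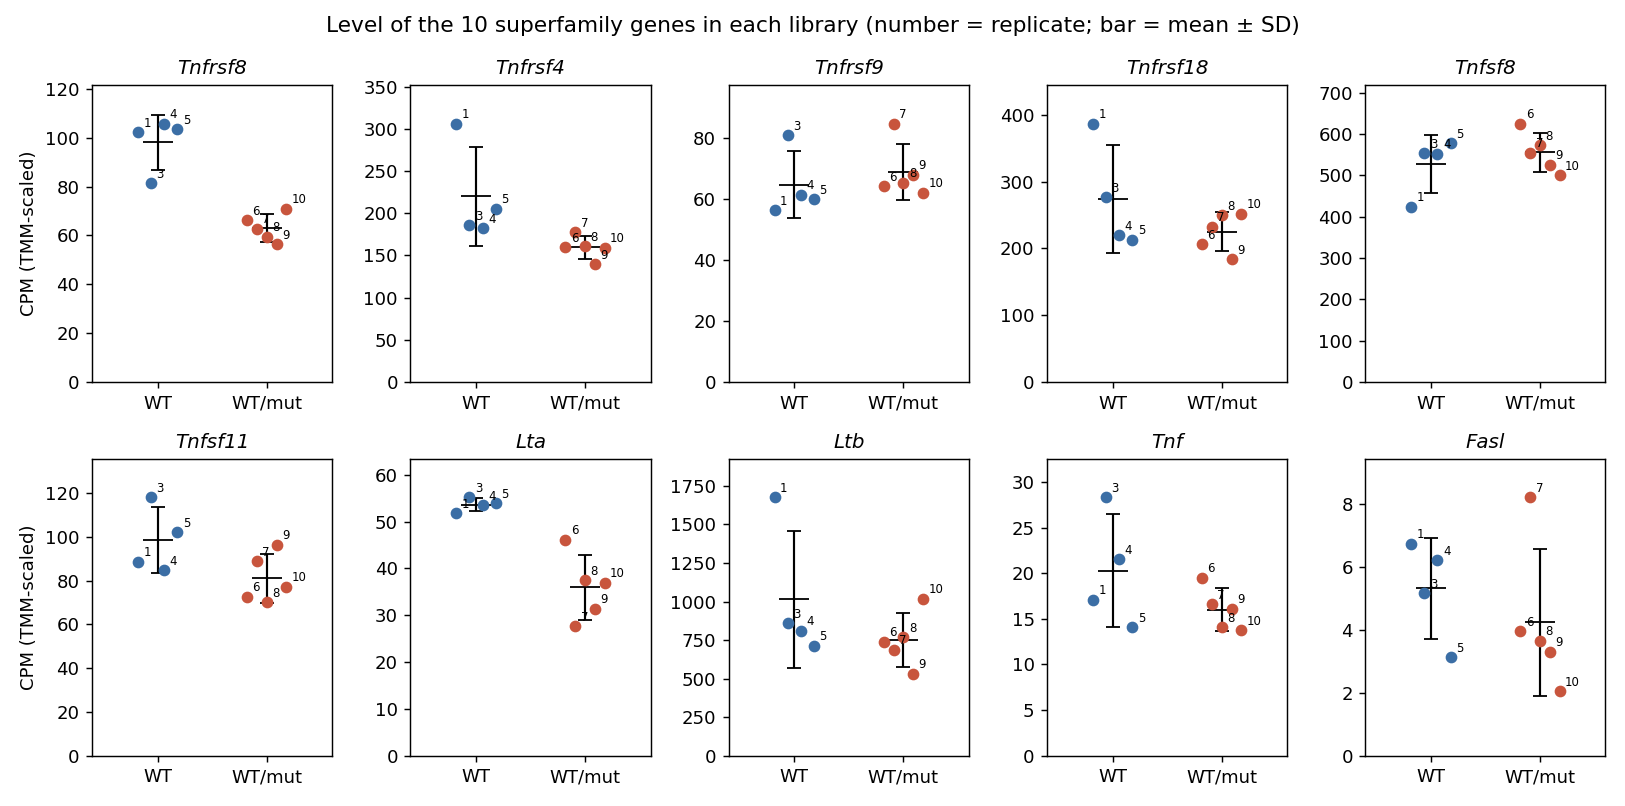
Level of each of the 10 genes in each library (vertical axis, CPM scaled by TMM, starting at 0), with WT in blue, WT/mut in red, replicate numbers beside the points and bars for the mean ± SD (n = 4 and 5). The points of Tnfrsf8, Tnfrsf4 and Lta do not overlap between the groups, and WT replicate 1 stands above all other libraries in Tnfrsf4, Tnfrsf18 and Ltb.

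The bases before the transcription start are shown for these 3 genes, and for Tnfrsf9, a receptor gene whose groups overlapped and whose second RefSeq start holds all 3 motifs searched. They are the 250 bases upstream of the RefSeq start on GRCm38.p6, written 5′ to 3′ on the strand of the gene. Capitals mark matches to 3 short motifs on either strand, an NF-kB-like motif (GGG and TTTCC with any 2 bases between them), an AP-1-like motif (TGANTCA) and the SMAD half-site CAGAC, which reads GTCTG on the other strand.
Tnfrsf8 (chr4:145315165-145315414, minus strand): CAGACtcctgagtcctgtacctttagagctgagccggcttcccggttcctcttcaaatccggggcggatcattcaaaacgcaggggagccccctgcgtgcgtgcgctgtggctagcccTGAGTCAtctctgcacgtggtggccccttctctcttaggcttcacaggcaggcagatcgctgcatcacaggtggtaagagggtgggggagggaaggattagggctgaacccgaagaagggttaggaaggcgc
Tnfrsf4 (chr4:156013445-156013694, plus strand): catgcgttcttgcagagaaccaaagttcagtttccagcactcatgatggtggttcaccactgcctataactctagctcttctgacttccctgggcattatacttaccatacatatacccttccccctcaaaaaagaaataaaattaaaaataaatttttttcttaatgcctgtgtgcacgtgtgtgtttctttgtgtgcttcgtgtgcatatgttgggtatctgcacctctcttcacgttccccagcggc
Lta (chr17:35205352-35205601, minus strand): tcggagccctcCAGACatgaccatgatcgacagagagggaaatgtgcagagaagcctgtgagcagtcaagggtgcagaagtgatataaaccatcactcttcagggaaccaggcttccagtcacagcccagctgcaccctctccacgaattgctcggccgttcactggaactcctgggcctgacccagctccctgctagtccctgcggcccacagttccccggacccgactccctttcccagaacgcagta
Tnfrsf9 (chr4:150927749-150927998, plus strand): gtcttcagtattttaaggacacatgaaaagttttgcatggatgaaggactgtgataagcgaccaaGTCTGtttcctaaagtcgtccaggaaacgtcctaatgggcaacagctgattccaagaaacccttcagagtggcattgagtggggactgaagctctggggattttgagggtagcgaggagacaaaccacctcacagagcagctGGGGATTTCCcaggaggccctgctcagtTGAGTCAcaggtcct
The RefSeq start of Tnfrsf4 lies upstream of the start annotated by GENCODE. Those of Tnfsf8, Tnfrsf18, Ltb and Tnfrsf9 (first and second) lie downstream of the GENCODE gene start, so their windows overlap the annotated gene. The AP-1-like motif of Tnfrsf8 lies 132 to 126 bases before the start, and that of Tnfrsf9 15 to 9 bases before its second start. Of 27025 promoters of this length, 6.87% hold the AP-1-like motif, 1.40% the NF-kB-like motif and 42.1% the SMAD half-site. These shares count only the first listed start of each gene, on which basis Tnfrsf9 holds none of the 3 motifs. Among the 10 genes, the NF-kB-like motif was found before Ltb and before the second start of Tnfrsf9. The AP-1-like motif was found before Tnfrsf8 and the second start of Tnfrsf9. The SMAD half-site was found before Tnfrsf8, Tnfrsf18, Lta, Ltb, Tnf and the second start of Tnfrsf9. The half-sites of Tnfrsf18 and Ltb and all matches of Tnfrsf9 lie inside the gene as annotated by GENCODE. The windows of Tnfrsf4, Tnfsf8, Tnfsf11, Fasl and the first start of Tnfrsf9 held none of these motifs. Each match describes the sequence and was not tested for binding.

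The 10 genes spanned a wide range of expression. Levels between genes are compared as CPM per kb of annotated exon (GENCODE M21). In WT cells Ltb stood highest, at 669 ± 293 CPM per kb (SD, n = 4), above Tnfrsf18 (180 ± 53), Tnfrsf4 (161 ± 43) and Tnfsf8 (139 ± 18), which overlapped in that order. Tnfsf11 (43.97 ± 6.74) and Lta (38.7 ± 1.0) followed and overlapped, then Tnfrsf8 (28.4 ± 3.3) and Tnfrsf9 (23.7 ± 4.0), which overlapped, then Tnf (12.4 ± 3.8) and Fasl (2.75 ± 0.82), each separate from the gene above it. In WT/mut cells the order differed at 2 places. Tnfsf8 (146 ± 13) stood above Tnfrsf4 (117 ± 10) with no overlap, and Tnfrsf9 (25.3 ± 3.4) stood above Tnfrsf8 (18.3 ± 1.6) with no overlap.

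**Figure D2:**
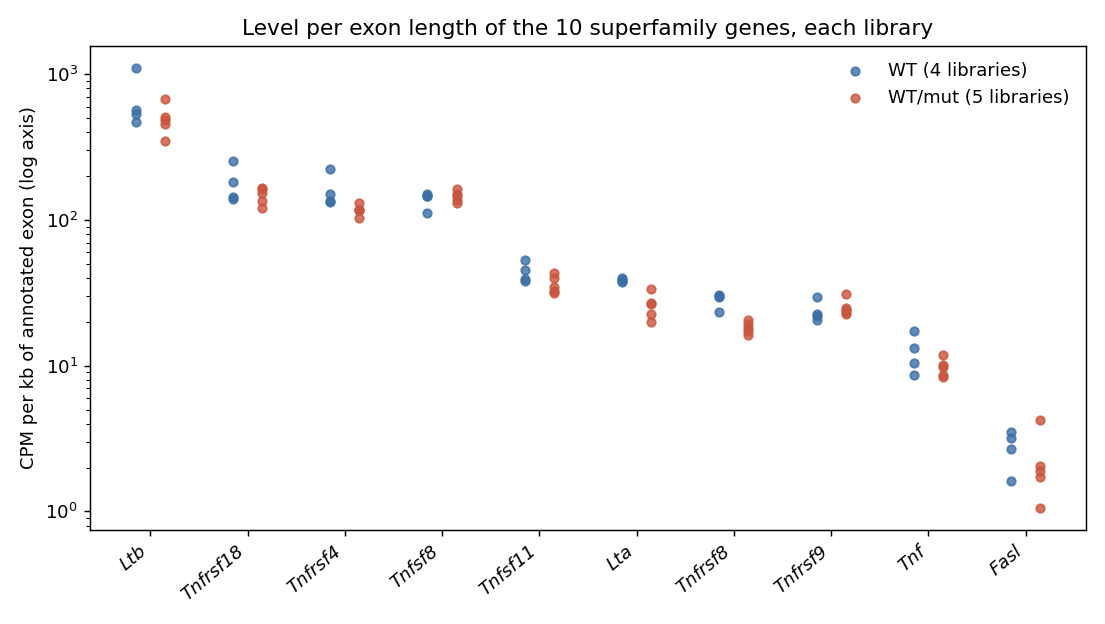
Level of the 10 genes per exon length (vertical axis, CPM per kb on a log scale), ordered by the WT mean, with 1 point per library (WT blue, n = 4; WT/mut red, n = 5). Ltb is highest and Fasl lowest in both groups, and Tnfrsf8 lies below Tnfrsf9 in WT/mut, where their ranges do not overlap.

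Tnfrsf8 encodes CD30, a receptor of activated T and B cells (ENSMUSG00000028602.12, GRCm38 chromosome 4, 145267137 to 145315164, minus strand; the sequence before its start is the first of those above). Its levels in WT/mut replicates 6 to 10 were 66.3, 62.8, 59.4, 56.4 and 71.0 CPM, and in WT replicates 1, 3, 4 and 5 they were 102, 81.4, 106 and 103 CPM. WT replicate 3 was the lowest WT library and still stood 10.4 CPM above the highest WT/mut library. The group means were 63.2 ± 5.7 CPM (SD, n = 5) and 98.2 ± 11.3 CPM (SD, n = 4). This gave a log2 fold change of -0.64 ± 0.11 (SE; 95% interval -0.90 to -0.38), or 1.55-fold lower, with an edgeR adjusted p of 0.0649. The value lay between -0.72 and -0.58 in all 20 alternatives. Its adjusted p lay between 7.44e-05 with DESeq2 and 0.999 in a fit that also held the summed plasma cell share of the counts. In that fit the log2 fold change was -0.63 ± 0.22. The plasma cell sums did not overlap between the groups (616 to 1583 CPM in WT/mut and 315 to 564 CPM in WT). That fit, here and for the genes below, therefore separates group from plasma cell share poorly.

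Tnfsf8 encodes the CD30 ligand, which binds CD30 alone among the receptors here (ENSMUSG00000028362.2, chromosome 4, 63831308 to 63861347). It stood at 625, 555, 574, 525 and 500 CPM in WT/mut replicates 6 to 10 and at 424, 554, 553 and 578 CPM in WT replicates 1, 3, 4 and 5. The groups overlapped over most of their range, and WT replicate 1 was the lowest library. The log2 fold change of the ligand was 0.08 ± 0.11 (95% interval -0.18 to 0.34, edgeR adjusted p = 0.800), and its sign turned to -0.01 without WT replicate 1. The difference between the fold changes of CD30 and its ligand was not tested.

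Tnfrsf4 encodes OX40, a costimulatory receptor of activated CD4 T cells (ENSMUSG00000029075.6, chromosome 4, 156013843 to 156016612). It stood at 159, 177, 161, 140 and 159 CPM in WT/mut replicates 6 to 10 and at 306, 186, 182 and 205 CPM in WT replicates 1, 3, 4 and 5. All WT libraries were higher, but the gap between the nearest libraries was 4.88 CPM, and with CPM on library size alone the ranges overlapped. The log2 fold change was -0.46 ± 0.15 (95% interval -0.82 to -0.11, edgeR adjusted p = 0.299). WT replicate 1 was the highest library, and the value was -0.26 ± 0.10 without it (edgeR adjusted p = 0.476). Its ligand gene Tnfsf4 (OX40 ligand), normally made by antigen-presenting cells, was low in all libraries, from 0.21 to 3.06 CPM in WT/mut and from 0.35 to 2.56 CPM in WT.

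Tnfrsf18 encodes GITR, a costimulatory receptor also known from regulatory T cells (ENSMUSG00000041954.18, chromosome 4, 156026164 to 156028895). It lies 9551 bases from Tnfrsf4. It stood at 206, 233, 250, 184 and 252 CPM in WT/mut replicates 6 to 10 and at 387, 277, 219 and 213 CPM in WT replicates 1, 3, 4 and 5, so that the groups overlapped and WT replicate 1 was again the highest library. Its log2 fold change was -0.28 ± 0.17 (95% interval -0.70 to 0.13, edgeR adjusted p = 0.510), and it ranged from -0.39 (without WT replicate 5) to -0.07 (without WT replicate 1) when 1 library was left out. An antisense gene shares 414 exon bases with Tnfrsf18, and the library kit does not mark the strand. That gene had between 48.28 and 163 expected counts per library, against 5172 to 12226 for Tnfrsf18. For Tnfsf18, the GITR ligand gene, all 10 counts came from WT/mut replicate 7.

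Tnfrsf9 encodes 4-1BB, an activation-induced costimulatory receptor (ENSMUSG00000028965.13, chromosome 4, 150914562 to 150946102). It stood at 64.1, 84.7, 65.3, 67.9 and 62.0 CPM in WT/mut replicates 6 to 10 and at 56.3, 80.8, 61.3 and 59.9 CPM in WT replicates 1, 3, 4 and 5. The highest library of each group, WT/mut replicate 7 and WT replicate 3, stood apart from the rest of its group. For Tnfrsf9 the log2 fold change was 0.09 ± 0.14 (95% interval -0.23 to 0.41, edgeR adjusted p = 0.807), and it was 0.01 without WT/mut replicate 7 and 0.22 ± 0.13 without WT replicate 3 (adjusted p = 0.442). The 4-1BB ligand gene Tnfsf9 stood at 6.48 to 9.11 CPM in WT/mut and 6.49 to 19.9 CPM in WT (-0.69 ± 0.32, adjusted p = 0.416), and its log2 fold change was -0.36 ± 0.30 without WT replicate 1, its highest library, and -0.89 ± 0.29 without WT replicate 4.

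Lta, Tnf and Ltb are neighbours on chromosome 17, within positions 35194439 to 35205351, with 1157 bases between Lta and Tnf and 3060 between Tnf and Ltb. Lta encodes lymphotoxin alpha, which is secreted as a trimer that binds the TNF receptors, or joins lymphotoxin beta at the cell surface to bind the lymphotoxin beta receptor (ENSMUSG00000024402.5, 35203165 to 35205351, minus strand). It stood at 46.2, 27.6, 37.5, 31.4 and 36.9 CPM in WT/mut replicates 6 to 10 and at 51.8, 55.2, 53.5 and 53.9 CPM in WT replicates 1, 3, 4 and 5. The WT libraries were close to each other (53.6 ± 1.4 CPM, n = 4), and the WT/mut libraries spread more widely below them (35.9 ± 7.0 CPM, n = 5). Between the nearest libraries lay 5.61 CPM, and 2.23 CPM with CPM on library size alone. The log2 fold change was -0.58 ± 0.14 (95% interval -0.91 to -0.24, edgeR adjusted p = 0.193), or 1.49-fold lower. It lay between -0.68 and -0.42 in all 20 alternatives, with an adjusted p from 0.0195 with DESeq2 to 0.999 in a fit that also held the plasma cell share, where the log2 fold change was -0.62 ± 0.29.

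Ltb encodes lymphotoxin beta, the membrane partner of lymphotoxin alpha (ENSMUSG00000024399.5, 35194439 to 35196320, plus strand). It stood at 739, 687, 770, 532 and 1019 CPM in WT/mut replicates 6 to 10 and at 1676, 858, 810 and 715 CPM in WT replicates 1, 3, 4 and 5. Apart from WT replicate 1 the libraries of both groups lay in the same range. For Ltb the log2 fold change was -0.44 ± 0.25 (95% interval -1.03 to 0.16, edgeR adjusted p = 0.490), and it ranged from -0.57 (without WT replicate 5) to -0.08 (without WT replicate 1) when 1 library was left out.

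Tnf encodes the inflammatory cytokine TNF (ENSMUSG00000024401.14, 35199381 to 35202007, minus strand). It stood at 19.5, 16.6, 14.1, 16.1 and 13.7 CPM in WT/mut replicates 6 to 10 and at 17.1, 28.3, 21.5 and 14.1 CPM in WT replicates 1, 3, 4 and 5. The groups overlapped, with the 2 highest libraries both WT. For Tnf the log2 fold change was -0.34 ± 0.21 (95% interval -0.83 to 0.15, edgeR adjusted p = 0.508), and it ranged from -0.48 (without WT replicate 5, unadjusted p = 0.0322, adjusted p = 0.445) to -0.13 (without WT replicate 3) when 1 library was left out. Of the 3 neighbouring genes, Lta had separate groups, while Ltb and Tnf did not; the differences between their fold changes were not tested.

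The receptors of these ligands were also measured. The gene of TNF receptor 2, Tnfrsf1b, averaged 125 ± 6 CPM (SD, 5 WT/mut libraries) and 112 ± 23 CPM (4 WT libraries), and that of TNF receptor 1, Tnfrsf1a, 26.9 ± 2.3 CPM and 22.2 ± 8.4 CPM. Their log2 fold changes were 0.17 ± 0.13 and 0.28 ± 0.22 (edgeR adjusted p = 0.598 and 0.610). Tnfrsf14 (HVEM), which binds the ligand LIGHT and lymphotoxin alpha, was at 99.0 ± 4.2 CPM and 91.3 ± 8.1 CPM. Ltbr, the lymphotoxin beta receptor of stromal and myeloid cells, was low, from 0.71 to 6.71 CPM in WT/mut and from 1.01 to 7.22 CPM in WT.

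Tnfsf11 encodes RANK ligand, the cytokine that induces M cells in the epithelium over Peyer's patches when stromal cells present it (ENSMUSG00000022015.8, chromosome 14, 78277445 to 78308043). It stood at 72.6, 88.7, 70.0, 96.5 and 77.1 CPM in WT/mut replicates 6 to 10 and at 88.6, 118, 84.7 and 102 CPM in WT replicates 1, 3, 4 and 5. The 3 lowest libraries were WT/mut, and the 2 highest were WT. The log2 fold change was -0.28 ± 0.13 (95% interval -0.59 to 0.03, edgeR adjusted p = 0.423), and -0.08 ± 0.26 in a fit that also held the plasma cell share. Its receptor gene Tnfrsf11a (RANK) lay between 0.36 and 2.79 CPM in WT/mut and between 0 and 2.15 CPM in WT. The decoy receptor gene Tnfrsf11b (osteoprotegerin) was counted 20 times in WT/mut replicate 7, 15 times in WT/mut replicate 8 and 2 times in WT replicate 3, and was at 0 elsewhere.

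Fasl encodes Fas ligand, which kills Fas-bearing cells (ENSMUSG00000000817.10, chromosome 1, 161780689 to 161788495). It was the least expressed of the 10 genes, at 3.97, 8.22, 3.66, 3.31 and 2.05 CPM in WT/mut replicates 6 to 10 and at 6.74, 5.18, 6.23 and 3.14 CPM in WT replicates 1, 3, 4 and 5. The highest and the lowest library were both WT/mut. For Fasl the log2 fold change was -0.33 ± 0.40 (95% interval -1.26 to 0.61, edgeR adjusted p = 0.756), and it was -0.71 ± 0.34 without WT/mut replicate 7 and -0.15 ± 0.38 without WT/mut replicate 10. In a fit that also held the plasma cell share it was -1.79 ± 0.64 (adjusted p = 0.999). Fas, the receptor gene, stood at 128 ± 11 CPM and 140 ± 16 CPM (-0.13 ± 0.11, adjusted p = 0.632).

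**Figure D3:**
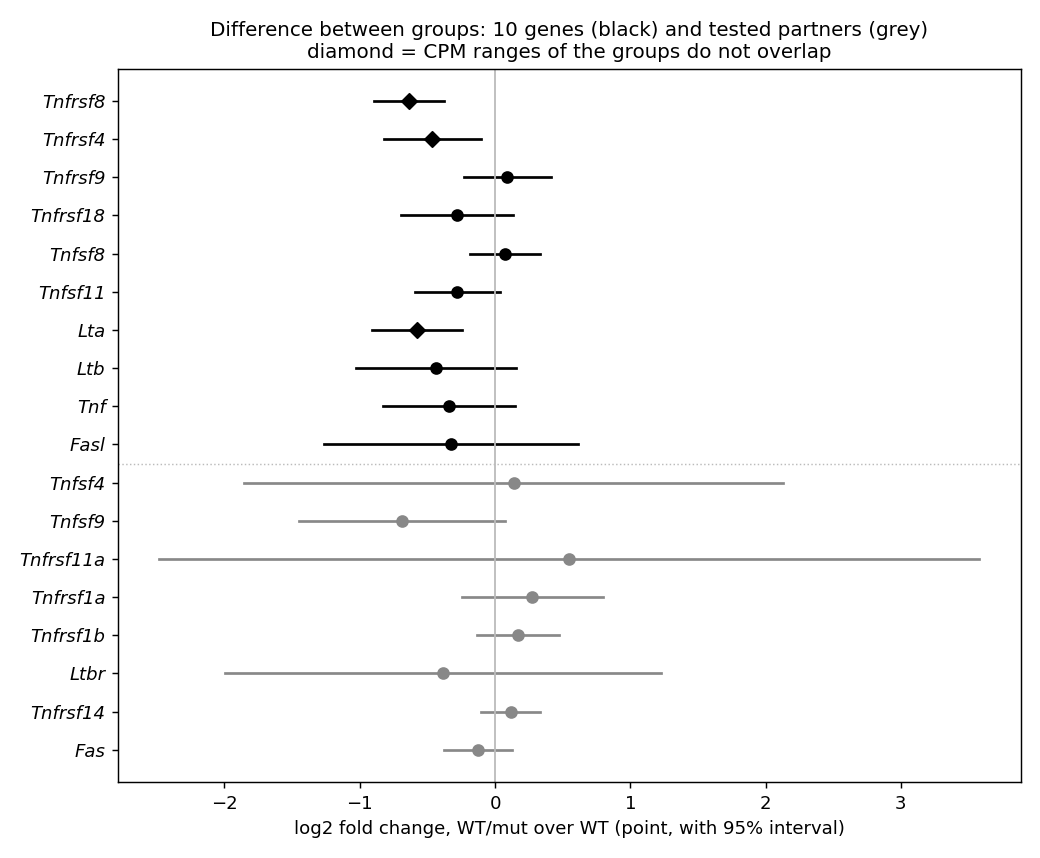
Log2 fold change, WT/mut over WT, of the 10 genes (black) and of 8 tested ligand or receptor partners (grey), as points with 95% intervals from the edgeR fit of 5 against 4 libraries. Diamonds mark genes whose TMM-scaled CPM ranges do not overlap, which are Tnfrsf8 (-0.64), Tnfrsf4 (-0.46) and Lta (-0.58). The widest intervals are those of Tnfrsf11a, Tnfsf4 and Ltbr, which had at most 248 counts in a library.

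The rest of the superfamily was followed through a list of 36 other ligand and receptor genes, the partners above among them, of which 26 were tested. With edgeR 0 of them passed. Unadjusted p was under 0.05 for 3, of which 1 was higher and 2 were lower, where 12.2% of all tested genes passed. The median log2 fold change was 0.12. DESeq2, which called 2.32% of all genes with an adjusted p, called 1 of the list, Tnfrsf25, which encodes the death receptor DR3, the receptor of TL1A. Tnfrsf25 stood at 10.5, 5.74, 8.14, 8.55 and 12.9 CPM in WT/mut replicates 6 to 10 and at 19.9, 15.7, 18.04 and 15.9 CPM in WT replicates 1, 3, 4 and 5. All WT libraries were higher (-0.92 ± 0.22, edgeR adjusted p = 0.182), and the value was -0.47 ± 0.39 once the plasma cell share entered as a covariate. Tnfsf10, which encodes the death ligand TRAIL, was at 10.8 ± 2.2 CPM and 6.66 ± 0.72 CPM (0.69 ± 0.21, edgeR adjusted p = 0.278), with 1 WT/mut library inside the WT range.

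Cd40lg, the ligand through which Tfh cells activate B cells, was at 217 ± 26 CPM and 264 ± 31 CPM (-0.28 ± 0.11, edgeR adjusted p = 0.368). Among the other ligands and receptors of lowest p, Tnfsf14 (LIGHT) stood at 0.19 ± 0.15, Tnfrsf13b (TACI) at -0.23 ± 0.11, and the decoy-like receptors Tnfrsf26 and Tnfrsf22 at -0.48 ± 0.23 and 0.32 ± 0.17, with edgeR adjusted p between 0.434 and 0.609. The value of Tnfrsf26 was -0.17 without WT replicate 1, its highest library at 200 CPM, and -0.65 without WT replicate 4.

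Downstream of the receptors, 31 genes of adaptors, kinases and NF-kB subunits were listed and all were tested. With edgeR 0 passed, and unadjusted p was under 0.05 for 1 higher and 1 lower gene, where 12.2% of all tested genes passed. The median log2 fold change was 0.01, and DESeq2 called 0. The 4 of lowest p were Traf4, a TRAF adaptor (-0.41 ± 0.14), Rnf31, the catalytic subunit of the linear ubiquitin ligase (0.40 ± 0.17), Traf2, the adaptor of the TNF receptors (-0.35 ± 0.19), and the kinase gene Ripk1 (0.20 ± 0.11), with edgeR adjusted p between 0.322 and 0.473. Of 12 inhibitors and targets of NF-kB, all tested, 0 passed with edgeR or DESeq2. Unadjusted p was under 0.05 for 6, of which 2 were higher and 4 lower. Over all tested genes 5.69% were higher and 6.46% lower at that threshold. The inhibitor genes Nfkbie (-0.28 ± 0.09), Nfkbid (-0.31 ± 0.11) and Nfkbib (-0.38 ± 0.15) were on the lower side. The CPM ranges of Nfkbie and Nfkbid did not overlap, with WT/mut lower, as for 2.38% of all tested genes. With CPM on library size alone the Nfkbid ranges overlapped, and the gap of Nfkbie was 0.70 CPM instead of 5.11 CPM. Tnfaip3, which encodes the deubiquitinase A20 that ends NF-kB signalling, was on the higher side (0.27 ± 0.11). The edgeR adjusted p of these 4 genes lay between 0.291 and 0.353.

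**Figure D4:**
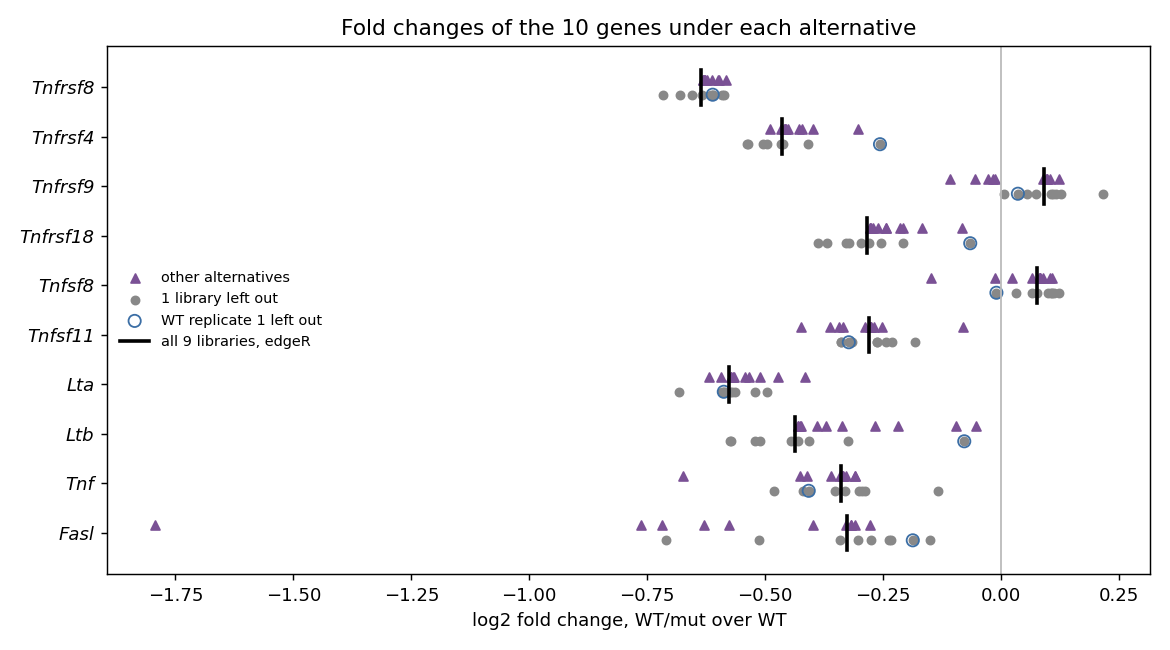
Log2 fold change of each of the 10 genes (horizontal axis) with all 9 libraries and edgeR (black bar), with 1 library left out (grey points; WT replicate 1 circled in blue) and under the 11 other alternatives (purple triangles). Tnfrsf8 and Lta stay between -0.72 and -0.42, and Tnfrsf4, Tnfrsf18 and Ltb move towards 0 without WT replicate 1.

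After removal of the group means, the genes whose log2 CPM varied most like Tnfrsf8 over the 9 libraries were Ddx19b (r = 0.95), RP24-530N5.6 (r = 0.93) and Kcnq3 (r = 0.93), and for Lta they were RP23-25A17.2 (r = 0.97), Dcaf6 (r = 0.97) and Lamp1 (r = 0.95). These were the highest of all tested genes, the points share library and depth, and the values are descriptions without a test. Over all alternatives in which they could be computed, the 6 correlations stayed at or above 0.81. These alternatives reuse the libraries from which the 6 genes were chosen, so they do not test the correlations. Among the 10 genes, Ltb, Tnfrsf18 and Tnfrsf4 varied most alike (r = 0.92 for Ltb with Tnfrsf18, 0.80 for Tnfrsf4 with Tnfrsf18 and 0.79 for Ltb with Tnfrsf4). WT replicate 1 was the highest library in all 3, and without it the values were 0.77, 0.34 and 0.26.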

How the data were processed

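Messenger RNA of sorted Tfh cells was measured in 9 libraries built from 300 pg of RNA each by the SMART-Seq method without strand information, per the labels' protocols. The authors deposited expected counts per gene. The submitters' processing notes name cutadapt 2.10, STAR 2.5.3, RSEM 1.3.0, DESeq2 and mm10; no source used here gives the annotation release. Between 11.1% and 18.3% of the values of a library were not whole, and all were rounded. Replicates within a group differed beyond sampling noise in all 16 pairs (mean chi-square per gene 28.0 to 224).

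Tests used edgeR 4.0.16 (quasi-likelihood F test, robust fit, TMM, no covariate, R 4.3.3) on the 15521 genes passing filterByExpr (minimum count 10, minimum total 15), with Benjamini-Hochberg adjustment over them. SE is the absolute log2 fold change over the square root of F, and 95% intervals use a t quantile with 7 degrees of freedom. On simulated counts the test recovered 18 of 50 genes changed 1.5-fold and 37 of 50 changed 2-fold, with 8 false calls among 161. The simulation also changed 50 genes each by 4-fold and 8-fold, all from genes above a minimum mean CPM. Its counts lacked the gene-specific spread of the quasi-likelihood fit. It gave 161 calls, against 19 in these data, so the adjusted threshold was easier to reach. Recovery in these data may therefore be lower. Many differences of about 1.5-fold would thus be missed. CPM values are TMM-scaled. Exon lengths and positions are those of GENCODE M21, and promoters those of RefSeq, where all 10 genes matched. The members and lists were chosen with earlier results of these data known. Named are Tgfbr1, the 10 genes, 10 binding partners, listed genes that passed, the 4 of lowest p in each list, and the 3 nearest genes by correlation (prior count 2) of the 2 members of lowest p. Cd4 and Cxcr5 were named to check the label, and Bcl6, Icos and Il7r to show single genes within 2 marker sums. Alternatives were other size factors, filters, DESeq2 1.42.0, limma-voom (limma 3.58.1), covariates and omitted libraries.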

Additional observations from a re-analysis of the deposited data

Results flagged for a closer look

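Within the groups, the level of 20 genes (the 10 genes and 10 partners) was checked in 2 groups each for a library far from the others, in 40 sets of values, and 7 were found. In 2 of these, Tnfsf18 and Tnfrsf11b, 1 library was above 0 and the others at 0, which is always found by this check. Of the 37 sets with at least 2 libraries above 0, 5 were found (13.5%, where chance gives about 5%). WT replicate 1 was the highest WT library for Ltb, at 1676 CPM against 715 to 858 CPM in the other 3, and the lowest for Tnfsf8, at 424.3 CPM against 553 to 578 CPM. WT replicate 3 was the lowest WT library for Tnfrsf8, at 81.4 CPM against 102 to 106 CPM, and the one WT library with counts of Tnfrsf11b, at 0.04794 CPM. WT/mut replicate 7 was the highest WT/mut library for Tnfrsf9, at 84.65 CPM against 62.0 to 67.9 CPM, and for Ltbr, at 6.715 CPM against 0.71 to 1.99 CPM, and the one library with counts of Tnfsf18, at 0.3138 CPM.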

How the results depend on the processing

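No paired analysis was possible because the 2 groups share no replicate number. Over 20 alternatives, of which the omission of WT/mut replicate 7 with WT replicate 1 was chosen after seeing the data, 8 of the 10 genes kept a negative sign in all, and Tnfsf8 and Tnfrsf9 changed sign. The count of the 10 genes called was 0 in 19 alternatives and 2 with DESeq2, and that of other superfamily genes 0 and 1. Members lower at an unadjusted p under 0.05 numbered 2 to 4, and those with separate ranges 2 to 4. Genes with an unadjusted p under 0.05 in either direction ran from 465 of 15521 (plasma cell share) to 4088 of 34361 (no filter on low counts). Over all genes, edgeR called 5 higher and 14 lower. Without 1 library it called 0 to 12 higher and 2 to 11 lower. The higher count was 12 without WT replicate 4, 1 without WT/mut replicate 8 and 0 without any other single library, and the lower count was 2 without WT/mut replicates 6 or 7 or WT replicate 3, 4 without WT/mut replicates 8 or 9, 5 without WT/mut replicate 10, 6 without WT replicate 1 and 8 without WT replicate 5. The higher count was 8 with library size as the only scaling, 8 with no filter on low counts and 8 with the stricter one (CPM above 1 in at least 4 libraries), and DESeq2 called 143 higher and 140 lower. With detected genes per library as a covariate 0 were higher and 1 lower, with the plasma cell marker share 0 and 0, with the regulatory T cell marker share 0 and 4, without WT/mut replicates 7 and 9 together 0 and 1, and without WT/mut replicate 7 and WT replicate 1 together 0 and 1; at an unadjusted p under 0.05 these fits had 1205, 465, 1254, 948 and 1105 genes. The cause was not tested. Tnfrsf9 was at -0.0135 with detected genes, -0.11 with the plasma cell share, -0.0279 with the regulatory T cell share, -0.0173 without WT/mut replicates 7 and 9 and -0.0543 without WT/mut replicate 7 and WT replicate 1. Tnfsf8 was at -0.15 with the plasma cell share and -0.0135 without WT/mut replicate 7 and WT replicate 1, and ranged from -0.00977 to 0.12 without 1 library. In the fit with the plasma cell share, Tnfrsf11a was at -2.25, Tnfrsf1a at -0.18 and Fas at 0.17. Tnfsf4 was at -0.20 with limma-voom, -0.10 with detected genes, -1.12 without WT/mut replicates 7 and 9 and -0.25 without WT/mut replicate 7 and WT replicate 1, and ranged from -0.49 to 0.92 without 1 library. Ltbr ranged from -1.14 to 0.34 and Tgfbr1 from -0.22 to 0.0738 without 1 library. Counts of Tnfsf4, Tnfrsf11a, Ltbr, Tnfsf18 and Tnfrsf11b were at most 248 in a library.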
